A study of Mus musculus with 6 samples.

Results

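Cluster 5 of the chimaera cells is a group of 1392 germinal centre B cells, out of 15352 cells in the chimaera table and 38651 cells in the series. Its members are the cells to which the deposited cell table gives the cluster number 5. It held 693 of 7314 cells of the KO library (9.47%, 95% Clopper-Pearson interval 8.81 to 10.2) and 699 of 8038 cells of the control library (8.70%, 8.09 to 9.33). The deposited table gives the cluster no cell type name, and none is given to it here. A cell enters a cluster through the genes it expresses, so the differences between cluster 5 and the other cells describe the cluster and test nothing.

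The series holds 6 libraries of germinal centre B cells, sorted from mouse spleens and read from the 5′ ends of their transcripts cell by cell. All mice were immunised with an antigen carrying the hapten NP, given with alum. The KO library came from irradiated Ccl19Cre/+ Il4raf/f hosts and the control library from irradiated Il4ra+/+ hosts. Both kinds of host had received wild type bone marrow, both were sampled at day 14, and both libraries were sorted as B220+ CD95hi GL7hi IgD- cells. In the KO hosts the gene for the IL-4 receptor alpha chain is deleted in host cells in which the Ccl19 promoter drives or has driven Cre, a lineage of lymphoid stroma that includes follicular dendritic cells. The sequenced B cells derive from the wild type marrow, so their own Il4ra transcript does not check the deletion. It stood at 42.9 CPM (UMIs of the gene per 1000000 UMIs of the group of cells, a UMI being 1 captured transcript) in KO and 39.96 CPM in control cells of cluster 5, a log2 ratio of 0.10 with a 95% interval of -0.17 to 0.37. Each host group is 1 library, so no test between them was possible, and every interval given here covers counting error only.

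Germinal centre B cells move between a dark zone, where they divide and mutate their antibody genes, and a light zone, where they take antigen from follicular dendritic cells and receive signals from helper T cells. During S phase a dividing cell makes replication proteins and the replication-dependent histones. Toward mitosis it makes Cdk1, the B-type cyclins and the mitotic kinases, and in late mitosis Cdc20, as an activator of the anaphase-promoting complex, targets many of these proteins for destruction.

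The authors' Phase calls put close to equal shares of cluster 5 into G2M in both libraries, 48.5% (44.7 to 52.3) in KO and 48.4% (44.6 to 52.1) in control. Among the other cells G2M took 29.4% in KO and 24.7% in control. G1 calls made up 30.3% (26.9 to 33.9) of cluster 5 in KO and 35.2% (31.7 to 38.9) in control, and S calls 21.2% (18.2 to 24.4) in KO and 16.5% (13.8 to 19.4) in control. The KO and control intervals overlapped for all 3 calls, which does not show that the shares are equal, and the differences were not tested. The shares of S and of G1 moved with depth: among cells above the median UMI count of their library, S took 37.5% of cluster 5 in KO and 28.8% in control, and G1 took 19.0% and 24.7%. The Position calls placed 89.5% (86.9 to 91.7) of cluster 5 in the dark zone (DZ) in KO and 89.3% (86.7 to 91.5) in control, against 55.6% of the other cells in KO and 49.0% in control. Light zone (LZ) calls took 6.64% of cluster 5 in KO and 4.43% in control, against 39.3% of the other cells in KO and 42.9% in control. The remaining 3.90% in KO and 6.29% in control were called unknown. How the authors made either call is not given in the sources used here, and both rest on the expression of the same cells.

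**Figure D1:**
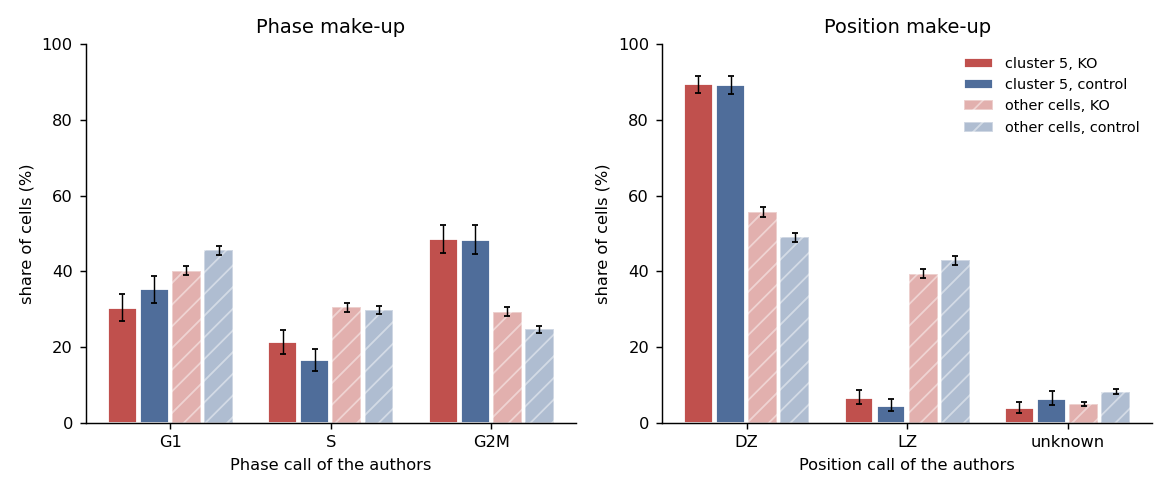
Share of cells (%) with each Phase call (left) and Position call (right), for cluster 5 and for the other cells of the KO and control libraries; error bars are 95% Clopper-Pearson intervals, counting error only. Cluster 5 stands at 48.5% and 48.4% G2M and at 89.5% and 89.3% DZ, above the other cells of both libraries.

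Phase and Position were linked inside the cluster. Of the G2M-called cells, 99.1% in KO and 99.4% in control were DZ, and of the S-called cells 95.9% in KO and 98.3% in control. Of the G1-called cells, 69.5% in KO and 71.1% in control were DZ, while 18.1% in KO and 11.8% in control were LZ. Cluster 5 is thus a mixture of Phase calls, unlike cluster 2, where G2M took 79.6% of KO and 80.0% of control cells, and cluster 1, where S took 67.9% of KO and 68.2% of control cells.

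The depth of cluster 5 was close to that of the other cells. Its median was 7007 UMIs per cell in KO and 6812 in control, against 7189 for the other cells in KO and 6643 in control, and the cluster summed to 5591442 UMIs in KO and 5555514 in control. The S-called cells of the cluster were the deepest, with medians of 11965 UMIs in KO and 12605 in control. A total of 90 cell barcodes occurred in both libraries, 2 of them within cluster 5. Transcripts that mark other cell types were measured in the same cells. Of 12 stromal and follicular dendritic cell markers the table holds 6, which summed to 3.58 CPM in KO and 3.42 CPM in control, with Ccl19, Vcam1 and Enpp2 at 0 UMIs. The 12 T cell markers summed to 32.2 CPM in KO and 43.7 CPM in control, with Cd4, Cd8a, Trbc1 and Icos at 0 UMIs. The 12 myeloid markers summed to 412 CPM in cluster 5 against 515 CPM in the other cells in KO, and to 528 against 784 CPM in control. Itgam, C1qa and C1qb stood at 0 UMIs, and Apoe and Cst3 gave nearly all of the sum. The 7 erythroid markers summed to 57.1 CPM against 63.3 CPM in KO and to 71.6 against 76.7 CPM in control, close to the other cells.

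To find the genes that lead the cluster, its UMIs were summed per library and set against those of all other cells of the same library. A gene was called when it reached 20 CPM on the higher side, showed a log2 ratio beyond 0.5 on either side of 0 and had a 95% interval without 0, the same way in both libraries. Of 5137 genes tested, 137 (2.67%) were called higher in cluster 5 and 331 (6.44%) lower. Without immunoglobulin genes, 137 of 5052 (2.71%) were called higher and 273 (5.4%) lower. The count depends on the size asked for, since 7 genes were higher and 68 lower at a log2 ratio of 1 or more. Set against clusters 1 and 2 alone, 60 genes were called higher.

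The highest ratios belonged to genes of mitosis, but G2/M genes were split as a list. Of 20 tested, 7 were called higher and 4 lower, and 11 stood above 1 and 6 below 1 in both libraries. The list's median log2 ratio was 0.13 in KO and 0.20 in control, beside 0.05 and 0.06 over all genes tested. Cdc20 stood at 319 CPM in cluster 5 against 113 CPM in the other cells of the KO library, and at 313 against 104 CPM in the control library. That is a log2 ratio of 1.49 (1.42 to 1.57) in KO and 1.59 (1.52 to 1.67) in control. Ccnb2, which encodes cyclin B2, stood at 424 CPM in cluster 5 against 159 CPM in the other cells in KO, and at 436 against 139 CPM in control. Its log2 ratio was 1.42 (1.35 to 1.48) in KO and 1.65 (1.58 to 1.71) in control. Cenpa, the centromeric variant of histone H3, had 394 CPM in cluster 5 against 159 CPM in the other cells in KO, and 382 against 144 CPM in control. Cdkn3, a phosphatase that acts on cyclin-dependent kinases, had 173 CPM in cluster 5 against 84.6 CPM in the other cells in KO, and 187 against 75.6 CPM in control. In each of these genes both cluster 5 values lay above both values of the other cells.

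The promoters of these 4 genes are shown because they rank among the highest ratios of the cluster and hold the same pair of short motifs. The windows are RefSeq sequences of build GRCm38.p6, which run from 250 bases before to 50 bases after the annotated start site, 5′ to 3′ on the strand of the gene. Capitals mark TTTGAA, the core of the cell cycle genes homology region, and CCAAT, the letters bound by NF-Y, on either strand (TTCAAA and ATTGG on the other). No marked stretches overlap.
Cdc20 at chr4:118437294-118437593, minus strand: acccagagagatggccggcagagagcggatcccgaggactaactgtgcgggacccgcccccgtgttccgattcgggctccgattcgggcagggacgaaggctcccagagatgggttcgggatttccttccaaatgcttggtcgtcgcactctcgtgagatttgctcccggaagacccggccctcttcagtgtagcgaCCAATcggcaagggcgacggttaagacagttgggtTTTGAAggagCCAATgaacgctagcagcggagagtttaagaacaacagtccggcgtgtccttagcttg
Ccnb2 at chr9:70421505-70421804, minus strand: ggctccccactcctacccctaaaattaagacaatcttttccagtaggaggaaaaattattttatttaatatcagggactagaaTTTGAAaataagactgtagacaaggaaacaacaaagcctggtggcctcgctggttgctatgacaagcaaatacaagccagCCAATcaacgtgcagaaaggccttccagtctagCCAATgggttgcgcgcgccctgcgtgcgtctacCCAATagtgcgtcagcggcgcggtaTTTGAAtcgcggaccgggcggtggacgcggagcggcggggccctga
Cenpa at chr5:30666636-30666935, plus strand: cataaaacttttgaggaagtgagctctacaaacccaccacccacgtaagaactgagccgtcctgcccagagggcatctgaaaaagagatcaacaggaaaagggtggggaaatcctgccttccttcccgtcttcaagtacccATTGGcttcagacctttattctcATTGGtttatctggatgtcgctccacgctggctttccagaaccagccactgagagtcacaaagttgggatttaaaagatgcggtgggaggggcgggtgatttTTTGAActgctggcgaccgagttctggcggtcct
Cdkn3 at chr14:46760291-46760590, plus strand: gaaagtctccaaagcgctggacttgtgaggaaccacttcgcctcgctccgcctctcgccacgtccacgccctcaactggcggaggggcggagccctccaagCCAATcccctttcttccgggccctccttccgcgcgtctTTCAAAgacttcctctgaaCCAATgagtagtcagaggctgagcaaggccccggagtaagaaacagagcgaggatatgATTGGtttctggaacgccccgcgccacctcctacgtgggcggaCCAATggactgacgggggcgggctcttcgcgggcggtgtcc

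Of the 20 leading genes named here, 17 matched a promoter in the RefSeq table, and 5 of those 17 held both TTTGAA and CCAAT. The fifth was Lockd, a long noncoding RNA gene next to Cdkn1b. Among all 27025 promoters, TTTGAA occurred in 18.1%, CCAAT in 37.9% and both together in 7.12%. CCAAT occurred in 8 of the 17, those 5 included. Among the promoters of the genes lowest in cluster 5, 5 of 10 matched, 3 held CCAAT and 0 held TTTGAA. A match states only that these letters lie in the window.

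The other leading genes of the cell cycle were fewer in UMIs. Knstrn, a kinetochore and spindle protein, had 103 CPM in cluster 5 against 47.5 CPM in the other cells in KO, and 116 against 45.4 CPM in control. Kif20a, a kinesin of cytokinesis, had 58.5 CPM against 32.8 CPM in KO and 55.1 against 30.2 CPM in control. Cdc25c, a phosphatase that activates Cdk1, had 25.6 CPM against 14.0 CPM in KO and 27.7 against 12.8 CPM in control. Mnd1, a partner of meiotic recombination proteins, had 26.1 CPM against 12.3 CPM in KO and 26.8 against 11.9 CPM in control.

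A second set of leading genes is not known for mitosis. Rgcc, a regulator of the cell cycle first described as a response gene to complement, had 238 CPM in cluster 5 against 115 CPM in the other cells in KO, and 256 against 112 CPM in control. Gcsam, a germinal centre protein that limits B cell motility, had 320 CPM against 180 CPM in KO and 343 against 162 CPM in control. Acsl5, a long-chain acyl-CoA synthetase, had 122 CPM against 66.7 CPM in KO and 114 against 61.4 CPM in control. Dap, which encodes a death-associated protein, had 281 CPM against 156 CPM in KO and 275 against 147 CPM in control. The remaining named genes were Pfn2 (a profilin), Hpgds (a prostaglandin D synthase), Bpgm (bisphosphoglycerate mutase), Vbp1 (a prefoldin subunit), Rdm1, Pqlc3 and Ddx19a (an RNA helicase). Their log2 ratios lay between 0.78 and 0.95 in the KO library and between 0.82 and 1.16 in the control library.

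Cluster 5 had the highest level among all 8 clusters for 16 of the 20 leading genes in KO and for 17 in control, and the next highest for the rest. Since these genes were chosen for their ratio over the other cells, such ranks follow largely from the choice. Cdc20 had 319 CPM in cluster 5 and 248 CPM in cluster 2 of the KO library, and 313 CPM and 273 CPM in the control library. In both libraries Cdc25c and Kif20a were highest in cluster 2 rather than in cluster 5.

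**Figure D2:**
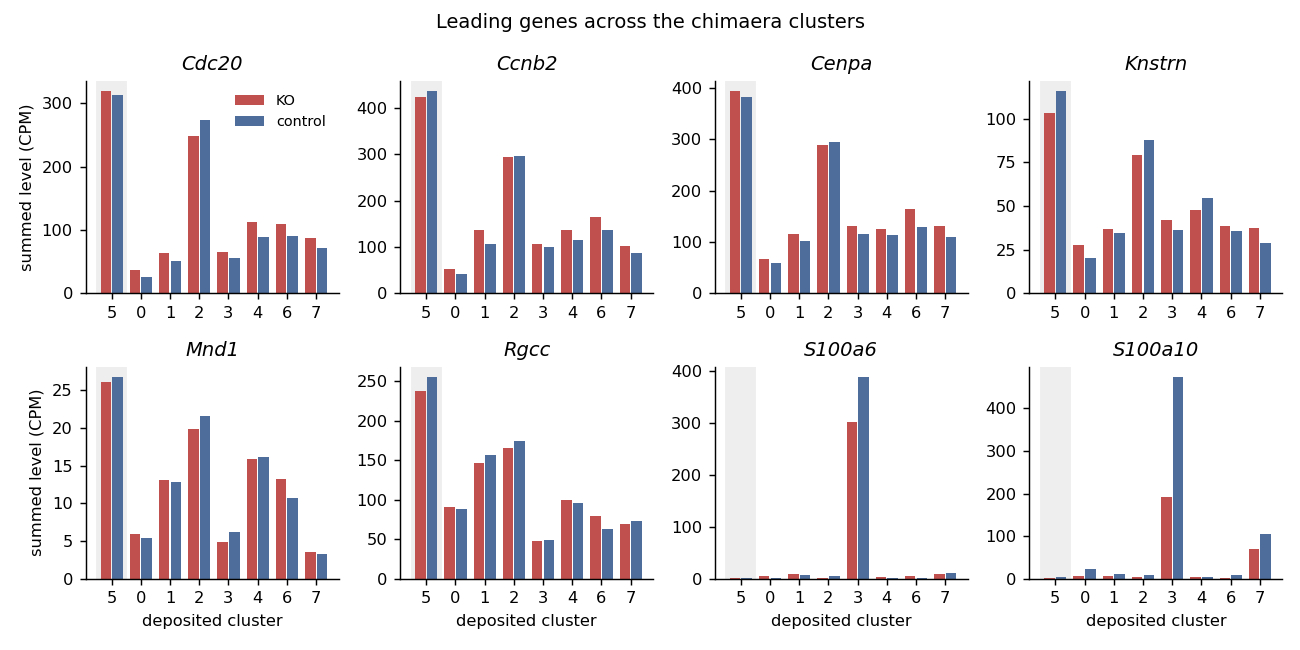
Summed level (CPM, linear axis from 0) of 6 leading genes and 2 of the lowest genes in each deposited cluster, KO bar left of control bar, with cluster 5 shaded; each bar is 1 library and has no replicate error. Cdc20, Ccnb2 and Cenpa peak in cluster 5 with cluster 2 next, and S100a6 and S100a10 peak in cluster 3.

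The genes lowest in cluster 5 fell into 2 kinds. S100a6 and S100a10, calcium-binding proteins, had 1.07 and 1.61 CPM in cluster 5 against 54.7 and 37.6 CPM in the other cells of the KO library. In the control library S100a6 had 1.62 CPM against 81.0 CPM and S100a10 had 5.04 CPM against 109 CPM. Plac8, Capg (an actin-capping protein), Serpinb1a (a protease inhibitor), Cfp (properdin) and Sub1 (a transcriptional coactivator) had log2 ratios between -3.09 and -2.11 in KO and between -4.04 and -2.64 in control. Nearly all of these genes were highest in cluster 3, and Sub1 in cluster 7.

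The other kind were replication-dependent histones. Hist1h2ap, an H2A gene, had 733 CPM in cluster 5 against 4332 CPM in the other cells in KO, and 487 against 3139 CPM in control, a log2 ratio of -2.56 in KO and -2.69 in control. Hist1h2ao had 8.76 CPM against 61.9 CPM in KO and 11.2 against 72.0 CPM in control. These H2A genes have near-identical copies, so counts assigned to any single copy are uncertain. Of the 15 histone genes listed, 9 were called lower and 1, the variant H2afz, higher. The list's median log2 ratio was -0.68 in KO and -0.82 in control, beside 0.05 and 0.06 over all genes tested.

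The same directions were seen within each Phase call. Set against other cells with the same Phase call, all 20 higher genes stayed above 1 and all 10 lower genes below 1 in both libraries, in G1, in S and in G2M. The genes were chosen on these same cells, so like directions follow largely from the choice and are no separate support. For the higher genes the smallest log2 ratio was 0.23, within G2M in KO. For Ccnb2 the log2 ratio was 2.48 in KO and 2.41 in control within G1, and 0.79 and 0.87 within G2M. Within G1 it had 386 CPM in cluster 5 against 69.5 CPM in the other cells in KO, and 338 against 63.8 CPM in control. Within G2M it had 494 CPM against 286 CPM in KO and 524 against 287 CPM in control. The G1-called cells of cluster 5 thus held more Ccnb2 per UMI than the G2M-called cells of the other clusters, in both libraries.

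Cdc20 and Ccnb2 varied differently inside the cluster. Cdc20 had 125 CPM in G1-called, 208 CPM in S-called and 499 CPM in G2M-called cells of the cluster in KO, and 117, 209 and 491 CPM in control. Ccnb2 ran from 352 to 494 CPM over the same calls in KO and from 338 to 524 CPM in control. After each cell was thinned to 2000 UMIs, a Cdc20 UMI was found in 16.3% of G1-called and 58.5% of G2M-called cells in KO, and in 14.0% and 60.9% in control. Before thinning these shares were 34.9% and 88.7% in KO and 42.4% and 88.7% in control. A Ccnb2 UMI was found after thinning in 54.1% of G1-called and 62.5% of G2M-called cells in KO, and in 42.4% and 62.4% in control, and before thinning in 86.1% and 94.5% in KO and 77.0% and 93.0% in control. In cluster 0, mostly G1 and LZ cells, the thinned share with a Ccnb2 UMI was 8.48% in KO and 7.23% in control. Cluster 0 also held 11.2% S and 4.41% G2M calls in KO, and 8.88% and 2.94% in control. The source of its Ccnb2 UMIs was not tested. The cells kept for thinning had median depths before it of 3994 UMIs in KO and 3910 in control in cluster 0. In cluster 5 these medians were 7068 and 6915. Over all cells the cluster 0 medians were 3700 and 3544 UMIs. The thinning kept 1687 of 1904 cluster 0 cells in KO and 1701 of 2005 in control. It left out 10 cells of cluster 5 in KO and 14 in control.

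Hist1h2ap was low in cluster 5 in every Phase. It had 609, 925 and 663 CPM in G1-, S- and G2M-called cells of the cluster in KO, and 413, 735 and 395 CPM in control. The other cells had 877, 4835 and 6866 CPM in KO and 594, 3644 and 5692 CPM in control. The gap to the other cells was therefore smallest in G1 and largest in G2M.

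By marker lists, cluster 5 stood on the dark zone side. Of 9 tested dark zone genes, 4 were called higher (Hmgb2, Ccnb2, Gcsam and Hmmr) and 0 lower, with a median log2 ratio of 0.40 in KO and 0.59 in control. Mki67, a proliferation antigen of the same list, was lower in cluster 5 without being called, with 357 CPM against 489 CPM in KO and 363 against 465 CPM in control. Since Ccnb2 and Gcsam are also leading genes, the list and the leading genes are not independent.

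Light zone genes were low. Over all genes tested, 2.67% were called higher and 6.44% lower. Of 14 tested light zone activation genes, 0 were called higher and 11 lower, with medians of -0.93 in KO and -1.03 in control. Cd83, a surface marker of light zone cells, had 180 CPM in cluster 5 against 408 CPM in the other cells in KO, and 98.6 against 263 CPM in control. Nfkbia, an inhibitor and target of NF-kB, had 122 CPM against 242 CPM in KO and 145 against 306 CPM in control. Of 12 tested genes of CD40 and NF-kB signalling, 7 were called lower and 0 higher, and of 8 immediate early genes 5 were called lower and 0 higher.

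Genes for antigen presentation were lower as a group. All 10 genes for MHC class II and its loading stood below 1 in both libraries, as did 34.7% of all genes tested, and 4 were called (H2-Aa, H2-DMb2, H2-Oa and Ciita). H2-Aa had 1899 CPM in cluster 5 against 3350 CPM in the other cells in KO, and 1830 against 3157 CPM in control. Cd74, the invariant chain, had 16214 CPM against 21155 CPM in KO and 15819 against 20172 CPM in control and was not called.

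Markers of exit from the germinal centre were low as well, beside 2.67% of all genes tested called higher and 6.44% lower. Of 10 tested memory-associated genes, 6 were called lower and 0 higher, with Klf2, a transcription factor of quiescent lymphocytes, at 33.3 CPM against 139 CPM in KO and 24.3 against 181 CPM in control. Of 9 tested plasma cell genes, 6 were called lower and 0 higher, and Sdc1 and Tnfrsf17 had 0 UMIs in the cluster. Jchain, the joining chain of secreted antibody, was at 969 CPM against 1020 CPM in KO and 1051 against 1685 CPM in control. Of 10 tested genes of ER stress and chaperones, 6 were called lower, among them Hsp90b1 with 228 CPM against 477 CPM in KO and 197 against 613 CPM in control.

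Metabolic lists moved by less. All 17 nuclear genes of oxidative phosphorylation stood above 1 in both libraries and all 13 mitochondrially encoded ones below 1, and none of either list was called. Of all genes tested, 50.9% stood above 1 in both libraries and 34.7% below 1. Atp5b, a subunit of ATP synthase, had 1045 CPM in cluster 5 against 785 CPM in the other cells in KO, and 1034 against 753 CPM in control. The median mitochondrial share of a cell's UMIs was 2.44% in cluster 5 against 2.95% in the other cells in KO, and 2.59% against 3.04% in control. Of 12 cholesterol synthesis genes, 10 stood above 1 in both libraries and 2 were called higher, Fdps and Idi1, both enzymes of isoprenoid synthesis. Fdps had 219 CPM in cluster 5 against 141 CPM in the other cells in KO, and 199 against 131 CPM in control.

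The clusters most like cluster 5, by the Spearman correlation of summed log2(CPM + 1) profiles over 6539 genes, were cluster 1 (0.97 in KO and in control) and cluster 2 (0.96 in KO and 0.95 in control). The points of each correlation share a library. Cluster 5 differed from each of them in another way, and the comparisons share the cells of cluster 5. Against cluster 1, 142 of 5105 genes (2.78%) were called higher and 241 (4.72%) lower. Against cluster 2, 122 of 5116 genes (2.38%) were called higher and 370 (7.23%) lower.

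Against cluster 1, most G2/M genes were higher and many S phase genes lower. Of 20 G2/M genes, 16 were called higher and 4 lower, with medians of 0.80 in KO and 1.10 in control. Cdc20 had 319 CPM in cluster 5 against 63.5 CPM in cluster 1 in KO, and 313 against 50.7 CPM in control. Of 24 S phase genes, 0 were called higher and 11 lower, including Pcna, the replication clamp, with 162 CPM against 257 CPM in KO and 140 against 262 CPM in control, and Mcm5, a replicative helicase subunit, with 160 CPM against 273 CPM in KO and 154 against 300 CPM in control. The 4 G2/M genes called lower were Cdk1, Aurkb, Top2a and Nusap1.

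Against cluster 2, the same G2/M list was mostly lower: 1 gene was called higher and 13 lower, with medians of -0.89 in KO and -0.99 in control. Cdk1, the kinase that drives entry into mitosis, had 51.3 CPM in cluster 5 against 296 CPM in cluster 2 in KO, and 43.7 against 304 CPM in control, a log2 ratio of -2.53 and -2.80. Aurkb, a kinase of chromosome alignment, had 37.9 CPM against 247 CPM in KO and 38.0 against 233 CPM in control. Top2a, the topoisomerase that untangles sister chromatids, had 171 CPM against 766 CPM in KO and 160 against 794 CPM in control. Ccnb2 was the gene called higher, with 424 CPM against 293 CPM in KO and 436 against 296 CPM in control. Cdc20, Ccnb1, Tpx2, Hmmr, Kif20a and Cdca8 were not called in either direction.

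**Figure D3:**
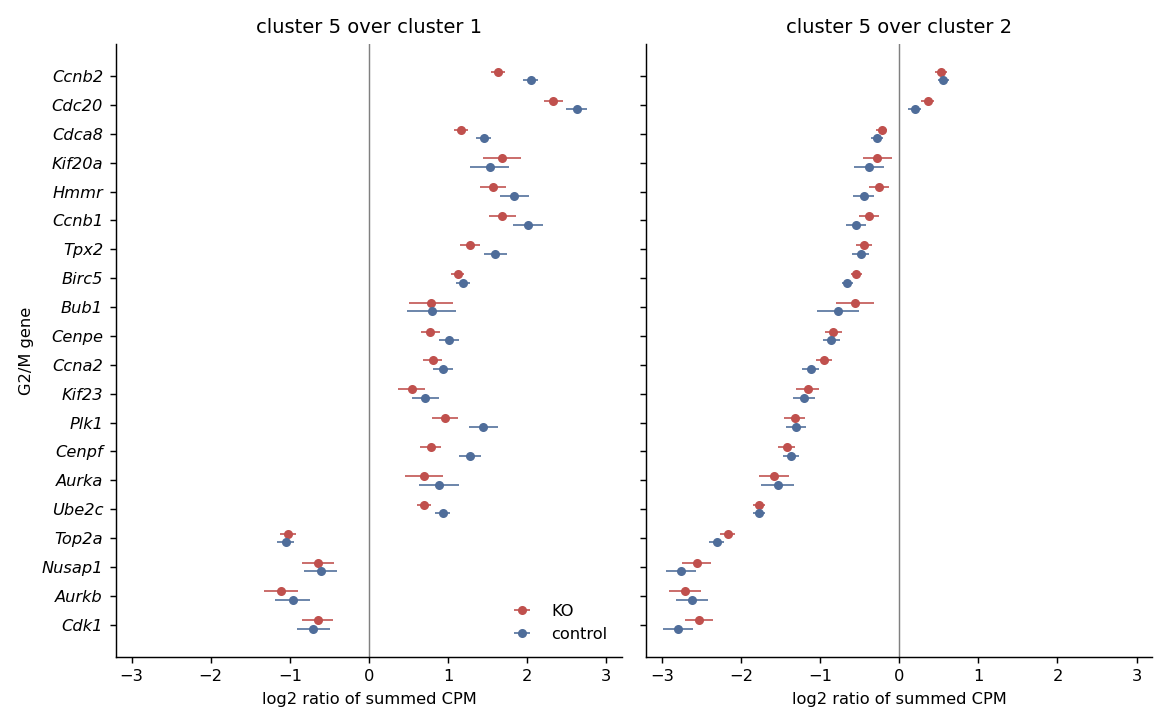
Log2 ratio of summed CPM, cluster 5 over cluster 1 (left) and over cluster 2 (right), for the 20 genes of the G2/M list in the KO and control libraries, with 95% counting intervals. All but Top2a, Nusap1, Aurkb and Cdk1 lie above 0 against cluster 1, and all but Ccnb2 and Cdc20 lie below 0 against cluster 2.

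Histones and growth genes separated cluster 5 from cluster 2 too. Of 15 histone genes, 10 were called lower and 0 higher, with Hist1h2ap at 733 CPM against 8134 CPM in KO and 487 against 6739 CPM in control. The 8 genes with the highest ratios over cluster 2, by the less extreme library, were Ung, Tsr1, Rrp15, Snhg20, Ndufaf4, Bag2, Timm9 and Rrs1. Ung is a uracil glycosylase of base excision repair, Tsr1, Rrp15 and Rrs1 serve ribosome assembly, Snhg20 is a noncoding RNA gene, Ndufaf4 and Timm9 serve mitochondria and Bag2 is a co-chaperone. Ung had 46.0 CPM in cluster 5 against 16.3 CPM in cluster 2 in KO, and 43.7 against 18.8 CPM in control. Inside cluster 5, Ung was concentrated in S-called cells, with 105 CPM in KO and 122 CPM in control, against 15.8 and 19.0 CPM in G1-called cells. Rrs1 had 94.8 CPM against 46.4 CPM in KO and 86.9 against 47.9 CPM in control. Of 15 tested genes of MYC-driven growth, 4 were called higher over cluster 2 (Odc1, Ppan, Rrp9 and Gnl3) and 0 lower.

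The leading genes were then looked up in the wild type Day14 libraries, whose cells were not part of the chimaera clustering. These 2 libraries came from wild type mice at day 14, sorted with the same gate. In Day14 cluster 4, of 1995 cells, all 20 leading genes lay above 1 in both libraries with no minimum level. In the other Day14 clusters with at least 20 cells in each library, the only ones compared, 0 to 12 of the 20 did. With a minimum of 20 CPM over the whole library, which keeps the same genes for every cluster and was chosen after seeing the data, 16 of 16 lay above 1 in cluster 4, as did 43.9% of all 5915 genes. In the other clusters 0 to 9 of the 16 did. The lower genes did not set cluster 4 apart, since all 4 that passed this minimum lay below 1 in both libraries in Day14 clusters 2, 3 and 8 as well as in cluster 4. Cdc20 had 395 and 377 CPM in Day14 cluster 4 of libraries 1 and 2, against 45.1 and 48.9 CPM in the other cells. Ccnb2 had 286 and 265 CPM against 53.9 and 57.5 CPM, and Rgcc 113 and 109 CPM against 60.3 and 58.7 CPM. Hist1h2ap was lower there, with 1300 and 1389 CPM against 6912 and 8382 CPM.

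Over 4795 genes, the log2 ratios of cluster 5 and of Day14 cluster 4 had a Spearman correlation of 0.70 across genes. Each ratio was against the other cells of its libraries. The next highest value among the Day14 clusters compared was 0.09. Genes are not independent replicates, and no test was made. The sizes of the ratios differed: Cdc25c and Kif20a had log2 ratios of 2.26 and 2.38 in Day14 cluster 4 of library 1, against 0.87 and 0.83 in cluster 5 of the KO library and 1.11 and 0.87 in the control library.

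**Figure D4:**
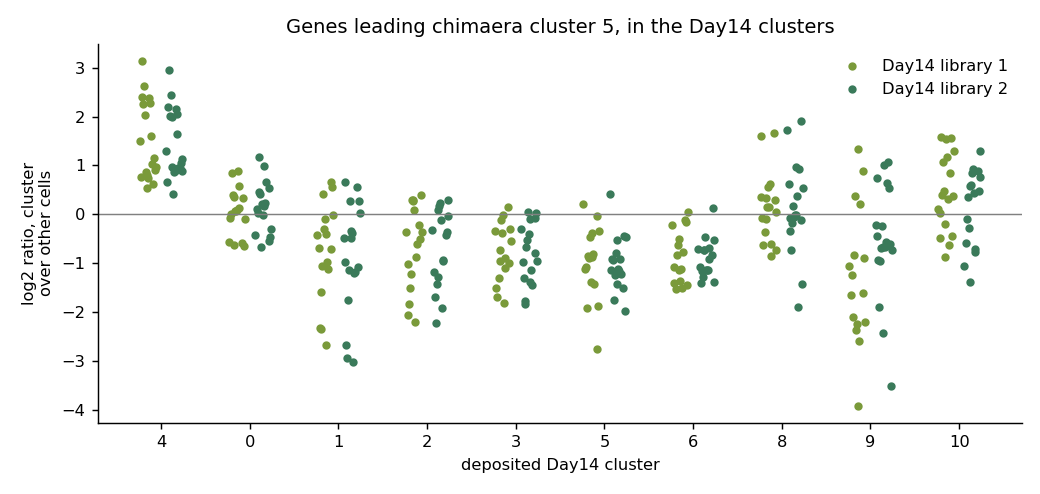
Log2 ratio (cluster over the other cells of its library) of the genes leading chimaera cluster 5, by deposited Day14 cluster. Clusters shown have at least 20 cells in each library. Each point is 1 gene with at least 20 CPM on either side, and the colours are the Day14 libraries. Of the clusters shown, only in cluster 4 do all points lie above 0.

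Within cluster 5, KO was set against control by the same size rule, on 1 library each. Without immunoglobulin genes, 53 of 5049 genes (1.05%) were called higher in KO and 47 (0.931%) lower. The same rule called 39 genes higher (0.769%) and 50 lower (0.986%) in KO among the other cells of these libraries, and 19 of 6087 genes (0.312%) in either direction between the wild type Day14 libraries. These counts are not matched in depth, since cluster 5 has 693 and 699 cells, the other cells number 6621 and 7339, and the Day14 value comes from all 9109 and 10648 cells of its libraries. With immunoglobulin genes, 71 of 5126 genes (1.39%) were called higher in KO and 75 (1.46%) lower. After each cell was thinned to 2000 UMIs the rule called 109 genes higher in KO and 141 lower, of which 34 and 23 were among those counted here. Values of the other cells stand beside those of cluster 5 below, and both come from the same pair of libraries.

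The genes highest in KO cells of cluster 5 included Fcer2a and Cd83, which are on the light zone list, and Samsn1, which is not. Samsn1, an adaptor that dampens B cell activation, had 53.5 CPM in KO and 22.9 CPM in control, a log2 ratio of 1.23 (0.92 to 1.54), beside 121 CPM in KO and 46.3 CPM in control among the other cells. Fcer2a, the IL-4-inducible low affinity IgE receptor, had 80.3 CPM in KO and 42.1 CPM in control, a log2 ratio of 0.93 (0.70 to 1.17), beside 201 and 113 CPM among the other cells. Cd83 had 180 CPM in KO and 98.6 CPM in control, a log2 ratio of 0.87 (0.72 to 1.02), beside 408 and 263 CPM among the other cells. Each of these genes was lower in cluster 5 than in the other cells of the same library.

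These differences were present in each Phase. For Cd83 the log2 ratio of KO over control was 1.09 in G1, 0.89 in S and 0.78 in G2M. For Fcer2a it was 1.39, 1.03 and 0.75, and for Samsn1 1.25, 1.01 and 1.39. In DZ-called cells of the cluster Cd83 had 162 CPM in KO and 89.6 CPM in control, and in LZ-called cells 513 and 323 CPM. Cd86 and Cd40, other light zone genes, were not called, and of the 13 tested light zone genes 2 were called higher and 0 lower, with a median of -0.01.

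Myc, the growth transcription factor, had 31.3 CPM in KO and 14.9 CPM in control cells of cluster 5, a log2 ratio of 1.07 (0.68 to 1.46). Among the other cells it had 37.6 CPM in KO and 36.2 CPM in control, a log2 ratio of 0.06 (-0.03 to 0.15). The counts behind the cluster 5 value were 175 and 83 UMIs. By Phase its log2 ratio was 2.11 in G1 (0.94 to 3.45), 0.69 in S (0.12 to 1.27) and 0.95 in G2M (0.34 to 1.58). Of 16 tested genes of MYC-driven growth, 15 lay above 1, as did 50.1% of all genes tested, and 2 were called higher, Myc and Srm (spermidine synthase), with a list median of 0.16 beside 0.00 over all genes tested. Kpna1, a nuclear import receptor, had a like pattern, with 24.9 CPM in KO and 14.4 CPM in control. Among the other cells it had 21.9 and 20.8 CPM, a log2 ratio of 0.07 (-0.05 to 0.19). Fabp5, a fatty acid binding protein, had 23.8 CPM in KO and 12.8 CPM in control. It was higher in KO among the other cells too, with 19.7 and 16.4 CPM, a log2 ratio of 0.26 (0.14 to 0.39). The difference between cluster 5 and the other cells was not tested. After thinning to 2000 UMIs per cell, Myc, Fabp5 and Kpna1 were no longer called, at log2 ratios of 0.72, 0.38 and 0.70.

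Many histone genes were higher in KO. Of 21 tested genes named Hist, on the list or not, 14 were called higher and 0 lower. Of the 15 genes on the histone list, 12 lay above 1, 8 were called higher and 0 lower, with a median log2 ratio of 0.57. Among the other cells all 15 lay above 1, as did 55.9% of all genes tested there, with a median of 0.32. None of the list was called there, but Hist1h4d at 0.49 and Hist1h2ap at 0.46 were close to the size rule. Off the list, Hist1h3b at 0.64 and Hist1h4h at 0.53 were called higher among the other cells. Hist1h1b, a linker histone, had 274 CPM in KO and 170 CPM in control cells of cluster 5, and Hist1h2ap 733 and 487 CPM. The variants H2afz, H2afv and H2afx, which are made outside S phase too, had log2 ratios of 0.04, -0.07 and -0.03. The share of S-called cells was 21.2% in KO and 16.5% in control. Within G1, Hist1h2ap had 609 CPM in KO and 413 CPM in control, within S 925 and 735 CPM, and within G2M 663 and 395 CPM. Of 24 S phase genes, 23 lay above 1, as did 50.1% of all genes tested, and 1, Ccne1, was called, with a list median of 0.15. Ube2s, a ubiquitin-conjugating enzyme of the anaphase-promoting complex, had 528 CPM in KO and 317 CPM in control, beside 432 and 267 CPM among the other cells.

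Other genes named as higher in KO were Pkib, Tmem123, Hist1h1a, Dock10 and Adnp, with log2 ratios between 0.76 and 0.92. Tmem123 had 106 CPM in KO and 60.1 CPM in control cells of cluster 5, beside 190 and 82.9 CPM among the other cells.

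Among genes lower in KO, Rpia, an enzyme of the pentose phosphate pathway, was lowest, with 35.6 CPM in KO and 75.1 CPM in control, a log2 ratio of -1.08 (-1.33 to -0.83), beside 37.9 and 62.1 CPM among the other cells. Irf7, a transcription factor of the interferon response, had 26.1 CPM in KO and 46.1 CPM in control, a log2 ratio of -0.82 (-1.12 to -0.52). Zbp1, an interferon-inducible nucleic acid sensor, had 17.3 and 31.7 CPM. Among the other cells Irf7 had 23.3 and 29.9 CPM, a log2 ratio of -0.36, and Zbp1 22.6 and 27.8 CPM, a log2 ratio of -0.30. Neither was called there. All 5 tested genes of the interferon list lay below 1, 1 of them called, with a median of -0.30. Of all genes tested, 49.9% lay below 1, and 0.931% of non-immunoglobulin genes were called lower. Among the other cells all 8 tested interferon genes lay below 1 with 4 called. There 44.1% of all genes lay below 1, and 0.986% of non-immunoglobulin genes were called lower. Ankrd37, Flt3, Ptms, Chchd5, Trim12a, Hbb-bt, Tox and Capg had log2 ratios between -0.89 and -0.74. Their intervals excluded 0, but the control level of Flt3, Chchd5, Tox and Capg was 23.8 CPM or less.

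Markers of other cell types, summed per list, were lower in KO within cluster 5 for T cell, myeloid and erythroid genes. The sums were 32.2 CPM in KO and 43.7 CPM in control, 412 and 528 CPM, and 57.1 and 71.6 CPM. Among the other cells these sums and the stromal sum were lower in KO too. Single genes went both ways. Hbb-bt, a haemoglobin gene with near-identical copies, had 39.0 CPM in KO and 66.1 CPM in control cells of cluster 5, while Hbb-bs, its neighbour, had 11.6 CPM in KO and 2.52 CPM in control. Of the myeloid markers, Apoe (apolipoprotein E) was called lower, with 211 CPM in KO and 340 CPM in control, beside 311 and 561 CPM among the other cells. Cst3 (cystatin C) had 194 CPM in KO and 182 CPM in control, and the other 10 stood at 3.78 CPM or less. The stromal markers summed to 3.58 CPM in KO and 3.42 CPM in control. Their part in the differences between the libraries was not tested.

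**Figure D5:**
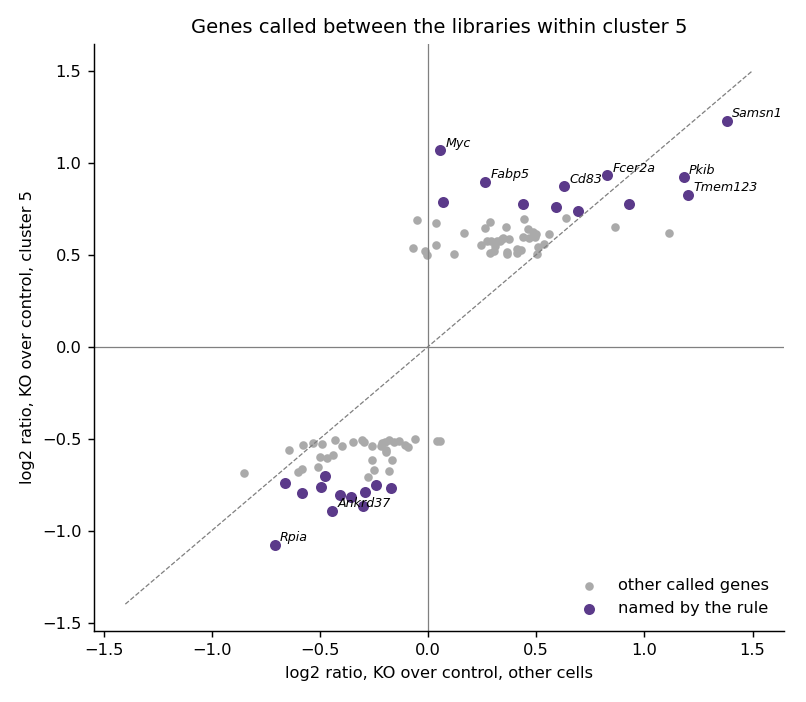
Log2 ratio of KO over control within cluster 5 (vertical) against the same ratio among the other cells (horizontal), for the non-immunoglobulin genes called within cluster 5; the dashed line marks equal ratios, and the 7 highest and 2 lowest genes are labelled. Purple points are the genes named by the rule for largest ratios. Myc lies near 0 on the horizontal axis, and Samsn1, Fcer2a and Rpia are far from 0 on both.

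Immunoglobulin transcripts were low in cluster 5 and unevenly spread between the libraries. They took 0.831% of its UMIs in KO and 0.904% in control, against 1.51% and 2.51% among the other cells. Of 10 tested constant region genes, 7 were called lower in cluster 5 than in the other cells and 0 higher. Over all genes tested, 331 of 5137 (6.44%) were called lower, and 273 of 5052 (5.4%) without immunoglobulin genes. Calls lower were thus common across immunoglobulin genes, V genes included, and not particular to the constant regions. Ighm, the constant region of IgM, had 589 CPM in cluster 5 against 1016 CPM in the other cells in KO, and 614 against 1256 CPM in control. Ighm took 69.8% (68.5 to 71.1) of the heavy chain constant UMIs of the cluster in KO and 66.0% (64.7 to 67.3) in control, and Ighg1 took 19.3% (18.2 to 20.5) and 18.2% (17.1 to 19.3). Iglv1, the lambda V gene known from NP responses, held 88.8% of lambda V UMIs in KO and 88.6% in control. Ighv1-72, the heavy V gene used by many NP-binding antibodies, held 15.6% (14.5 to 16.8) of heavy V UMIs in KO and 16.7% (15.6 to 17.9) in control, and led the heavy V genes in both libraries. Between the libraries, 18 of 77 immunoglobulin genes (23.4%) were called higher in KO within cluster 5 and 28 (36.4%) lower. Most were V genes, whose related copies share sequence, so counts for any single V gene are uncertain.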

How the data were processed

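The authors deposited UMI counts per gene and cell for 15763 genes, with a table of cluster, Phase and Position per cell. Cell Ranger, Seurat and build mm10 are named in the submitters' processing notes, and how the calls were made is not given in the sources used here. The counts were summed per library and cluster and scaled to CPM. Each log2 ratio has a 95% interval from the exact binomial split of its 2 counts (scipy 1.17.1), and each share a Clopper-Pearson one. Genes at 0 UMIs were set at 3 counts for ratios. A receptor barcode, 1 column of the chimaera cell table, was not used. The scripts ran in Python 3.11.15 and were tested on simulated data, and edgeR 4.0.16 gave TMM factors as an alternative.

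Named were the 20 highest and 10 lowest leading genes by the less extreme library, leaving out immunoglobulin, mitochondrial, ribosomal and predicted genes, the 12 genes most changed each way between KO and control, Il4ra, and the most abundant members of each list. Some genes that the rule picks are not reported here. Other list members named, genes named beside small counts, and those set against clusters 1 and 2, Myc's Phase values and the promoter motifs were chosen after their values were seen. The members and lists were chosen with earlier results of these data known. Scrublet (scanpy 1.11.5) marked 2 cells in each library, so it did not work as a caller, and no doublets were removed. An alternative left out the 5% of cells with the highest scores.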

Additional observations from a re-analysis of the deposited data

Results flagged for a closer look

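In 12 immunoglobulin V genes the KO library differed from the control library one way in cluster 5 and the opposite way in the other cells, both past the size rule. The difference between these ratios was not tested, and every pair comes from 1 library each. Higher in KO within cluster 5 were Igkv3-10 (log2 ratio 2.36), Igkv14-100 (2.26), Igkv3-4 (1.96), Igkv17-121 (1.62), Ighv1-9 (0.98), Igkv4-55 (0.94), Igkv10-96 (0.78), Igkv9-124 (0.76), Igkv4-72 (0.60) and Igkv10-94 (0.60). Lower were Igkv5-43 (-1.26) and Igkv3-5 (-1.36). Igkv17-121 had 116 CPM in KO and 37.6 CPM in control cells of cluster 5, beside 69.2 and 209 CPM in the other cells, and 297 of its 648 KO UMIs lay in 1 cell. For Igkv3-10 the 5 cells with most UMIs held 95.5% of them in KO and 76.7% in control. For Igkv10-96, found in 91 KO and 59 control cells of the cluster, they held 28.0% and 38.3%. The part of single cells in these ratios was not tested.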

How the results depend on the processing

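With a minimum of 5 CPM, 215 leading genes were called higher and 537 lower, and 152 genes were higher and 174 lower in KO within cluster 5. With no CPM minimum and at least 10 UMIs, these counts were 258, 667, 182 and 224. With a log2 ratio of 1 or more they were 7, 68, 2 and 1. With cells weighted alike, 208 leading genes were higher and 76 genes lower in KO. With cells thinned to 2000 UMIs, 206 leading genes were higher, 109 genes higher in KO and 141 lower. Against clusters 1 and 2 alone, 60 leading genes were higher. The cause of these shifts was not tested. Among cells above the median UMI count of their library, KO cells of cluster 5 were 43.5% G2M, 19.0% G1, 37.5% S and 94.3% DZ, and control cells 24.7% G1, 28.8% S and 93.1% DZ. Without unknown Position, DZ was 93.1% in KO and 95.3% in control. TMM scaling, a total without immunoglobulin genes, equal Phase shares and leaving out the highest doublet scores moved no count by over 1.5 times. No result of those recomputed changed direction past the threshold. Of the named genes, 13 leading genes lost the call against clusters 1 and 2 alone, and 9 of 24 between KO and control lost it after thinning. No paired analysis was possible because each host group is 1 library. With 1 library per group, variation between libraries of the same group was not measured, which limits all comparisons of KO with control. The intervals cover counting error only and leave that variation out.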
